A study of Homo sapiens with 2 samples.

Results

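The genes described here are those whose reads and whose length-scaled expression value implied a different transcript length in 2 RNA-sequencing libraries. For each gene the deposited read count was divided by the deposited FPKM (fragments scaled by transcript length and library size), a quotient that is proportional to a transcript length. The quotient in the library labelled HIPK2 shRNA was divided by that in the control, and this ratio was centred on its median of 0.939 over the genes with a count of 50 or more in both libraries. A gene was a member when its count was 50 or more in both libraries and its centred ratio was 2 or more, or 0.5 or less. Of 20263 listed genes, 10342 met the count minimum and 84 of these were members, which is 0.812%. The implied length was longer in the library labelled HIPK2 shRNA for 42 members and shorter for 42, which is 0.406% of the genes in each direction. All 84 were protein coding, as were 10332 of the 10342 genes that met the count minimum, so this is no trait of the members. The members were thus selected on the deposited count and FPKM of these same libraries.

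Both libraries came from Cal-27, an established squamous cell carcinoma line from the tongue. The control carried sh-scramble, a scrambled hairpin, and the other carried GV-248-HIPK2-sh, a hairpin against the nuclear kinase HIPK2, each by stable transduction and with no other treatment. Total RNA was sequenced in paired-end reads of 150 bp. Each group held 1 library, so there was no test and no replicate check, and whether the same differences would be seen in another culture was not tested. The ratios below therefore describe the members and support nothing further.

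A human gene is usually annotated with several transcripts, which arise from different start sites, from the inclusion or skipping of exons, and from different cleavage and polyadenylation sites. A polyadenylation site far downstream adds untranslated sequence after the stop codon, the 3′ UTR, where microRNAs and RNA-binding proteins can act, whereas a site within an intron can end the transcript early and change the protein. A count gives the number of reads on a gene, and a long transcript yields more reads than a short one at the same number of molecules. FPKM and TPM (the share of transcript molecules, scaled to a fixed sum) divide the reads by a length, so when that length differs between libraries, counts and TPM no longer move together.

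The quotient was put in bases with the 534 genes that have a single transcript in the GENCODE 29 annotation and met the count minimum. Their implied lengths lay from -0.473% to 0.807% off the annotated length in the control (5th to 95th percentile), and from -0.468% to 0.80% for the library labelled HIPK2 shRNA. Single genes were farther off, by -38.4% to 342% in the control and -38.4% to 334% in the other. None of these 534 genes was a member, and their centred ratios ran from 0.923 to 1.01. Over all 10342 genes the 5th and 95th percentiles of the centred ratio were 0.796 and 1.25, and 96.3% lay within 1.5-fold of 1. Among the members the ratio ran from 0.187 for PCF11 to 77.0 for LYSMD4.

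**Figure D1:**
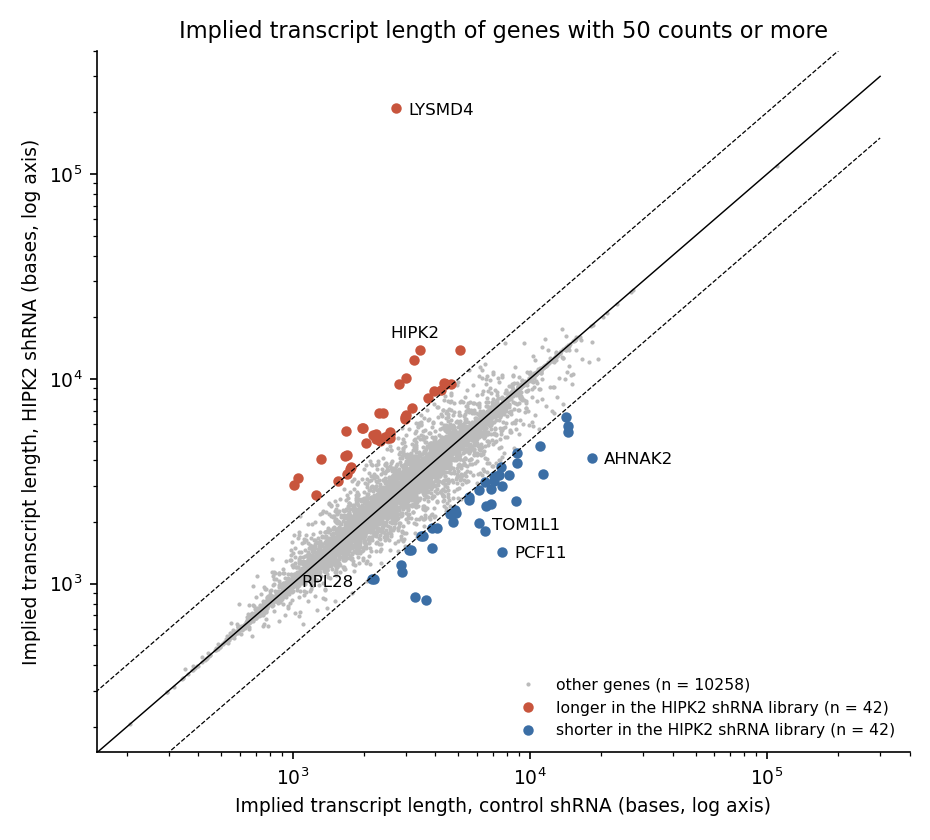
Implied transcript length in bases in the control library (horizontal, log axis) and in the library labelled HIPK2 shRNA (vertical, log axis) for the 10342 genes with a count of 50 or more in both, 1 point per gene. The solid line marks equal lengths and the dashed lines the limits of 2 and 0.5, so the 42 longer members lie above the band, the 42 shorter members below it, and LYSMD4 far above all others at 209040 bases.

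HIPK2 itself, the targeted gene, was a member. It encodes a serine/threonine kinase that phosphorylates transcription regulators, and it lies at chr7:139561570-139777778 on the minus strand of GRCh38. Its count was 110 in the control and 218 in the library labelled HIPK2 shRNA, while its TPM was 1.63 and 0.873. The library labelled HIPK2 shRNA was thus higher by count and lower by TPM. In CPM, counts scaled to a common library size with TMM factors, the level was 4.01 and 8.06, a ratio of 2.01 with a 95% exact (Clopper-Pearson) interval of 1.59 to 2.55. In TPM it was 1.86-fold lower. Such intervals hold the error of counting alone. The processing notes name no molecular identifiers, so the reads may not stand for separate molecules. In bulk RNA, fewer cells that express a gene and less of its RNA per cell cannot be told apart. By count the library was not lower in the gene its label names, and every direction below goes with that label only.

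The implied length of HIPK2 was 3442 bases in the control and 13817 bases in the library labelled HIPK2 shRNA, a centred ratio of 4.01. GENCODE 29 lists 3 transcripts of the gene, and each implied length had 1 of them within 15% of it. In the control that was HIPK2-201 with 2937 bases, of which 204 are 3′ UTR, although the value also lay between HIPK2-201 and HIPK2-203 with 3969 bases. In the other library it was HIPK2-202 with 15049 bases, of which 11360 are 3′ UTR. The 3 transcripts end at different places, and their last 30 bases are shown because these are the annotated ends of the candidates. HIPK2-201 and HIPK2-202 also start 60705 bases apart, and which part of the transcript differed was not measured. Capitals mark a match to AATAAA or ATTAAA, the hexamers that most often precede a human cleavage site, searched on the transcript strand only.
HIPK2-201, chr7:139583524-139583553, minus strand: taatagaaAATAAAagcctcctggttcttt
HIPK2-203, chr7:139572629-139572658, minus strand: tgggaaatctatggtttttattttaaaaaa
HIPK2-202, chr7:139561570-139561599, minus strand: aattacATTAAActgtttgaaatcactgta
These ends were read from GENCODE 29 transcripts on GRCh38. AATAAA is present in the end of HIPK2-201, ATTAAA in that of HIPK2-202, and neither in the last 30 bases of HIPK2-203. Among complete protein-coding transcripts, 44.3% of 332 from the members and 52.2% of 33545 from all genes that met the count minimum had one of these hexamers in their last 30 bases, so a match is common and an absent match is no sign that the end is not used.

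The coding sequences of the HIPK2 transcripts also differ. HIPK2-202 has 3594 coding bases and HIPK2-203 has 3513, and the difference is a single segment of 81 bases, coding positions 1783 to 1863 counted from the first base of the start codon, at chr7:139614413-139614493 on the minus strand. It is shown in capitals with 21 bases of coding sequence on either side, because it tells these 2 long coding sequences apart.
HIPK2-202 coding segment: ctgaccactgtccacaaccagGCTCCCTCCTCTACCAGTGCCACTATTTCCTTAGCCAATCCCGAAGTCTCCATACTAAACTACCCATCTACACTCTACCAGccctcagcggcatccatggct
The implied length does not resolve this segment. Only reads across it would, and reads were not used here. The other HIPK genes served as a comparison within the family. HIPK1 had counts of 424 and 562 and implied lengths of 8150 and 7544 bases, a ratio of 0.926. HIPK3 had counts of 235 and 423 and implied lengths of 7399 and 7363 bases, a ratio of 0.995. Both were higher by count and by TPM, so the opposite directions seen for HIPK2 were not shared by them. HIPK4 had 2 counts in each library and was not tested.

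Annotated transcripts near the implied lengths were then sought for every member, where near means a transcript length within 15% of the implied length. A transcript was near the control value for 50 members and near the other value for 53, against 8807 and 8831 of the 10340 tested genes in GENCODE 29, so a smaller share of the members had one. For 27 members, or 32.1%, there was one near each of the 2 lengths, against 79.6% of the tested genes, whose 2 lengths were mostly alike and could match the same transcript. For 8 members, or 9.52%, no transcript was near either length, against 9.04% of those genes. Both implied lengths lay between the shortest and the longest annotated transcript, with the same tolerance, for 82 of the 84 (97.6%) and for 99.9% of tested genes, so this is no trait of the members. A gene-level length between annotated lengths is what a mixture of transcripts gives, so nearness to a transcript names a candidate and does not measure it. The deposited gene position equalled that in GENCODE 29 for 70 members (83.3%) and for 79.9% of tested genes. For RAB11A, SPTLC3, TENM3 and AHNAK2 non-coding transcripts reach beyond the deposited position. Whether the deposited lengths used non-coding transcripts was not tested, so such transcripts named below are uncertain candidates.

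For 17 of the 27 members with a transcript near each length, both nearest transcripts were protein coding. The larger part of their length difference was 3′ UTR in 16 of these 17 pairs and coding sequence in 1, MIA3. Of these 17 pairs, 15 had complete transcripts at both ends, and in all 15 the larger part was 3′ UTR. The median share of the length difference that was 3′ UTR was 92.3% over the 17 pairs. Annotated transcripts of very different length often differ this way. Among all pairs of complete coding transcripts of a tested gene that differ 2-fold or more in length, 3′ UTR was the larger part in 69.2% of 18619, with a median share of 76.3%. Among such pairs of the members it was so in 79.9% of 309, with a median of 91.2%, and pairs of 1 gene share transcripts. Over all 27 pairs, 25 had 3′ ends more than 100 bases apart and 17 had start sites more than 100 bases apart, so the start differed along with the end in many.

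**Figure D2:**
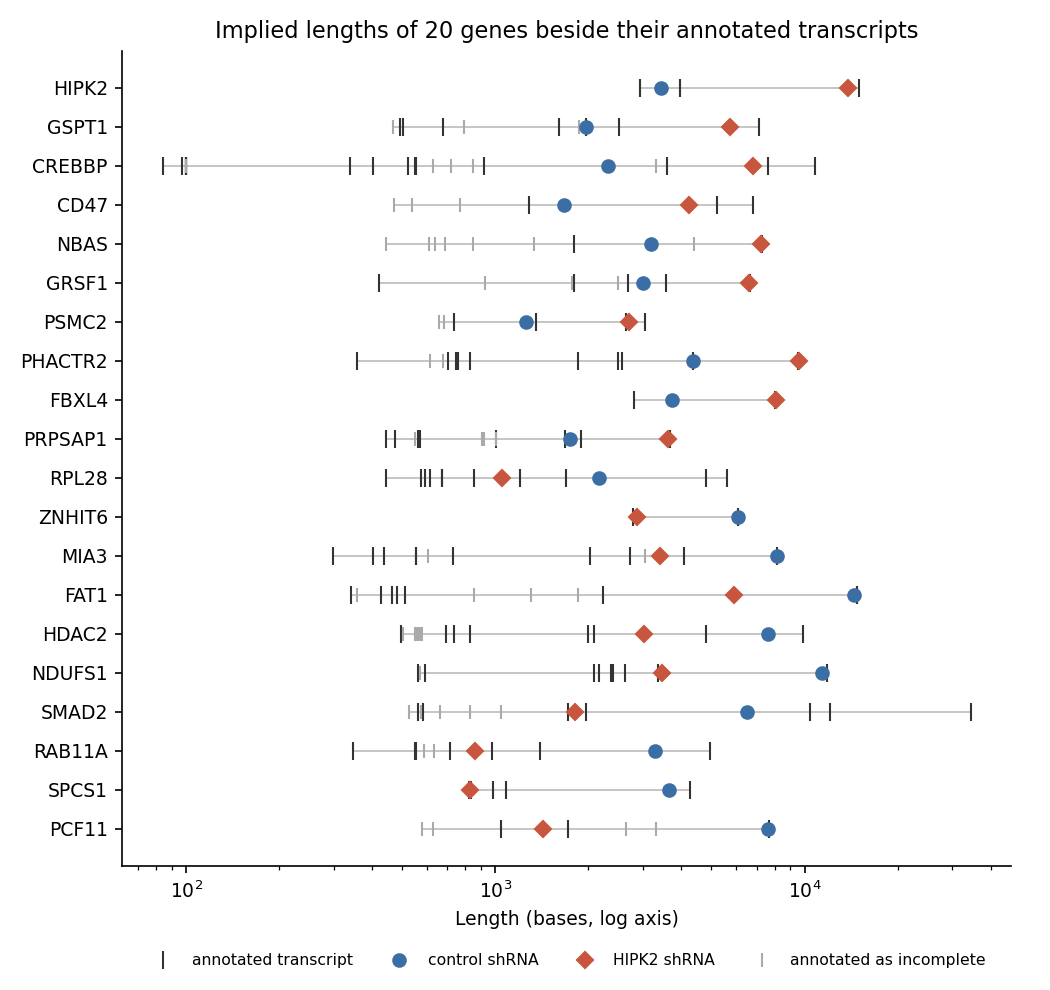
Implied lengths of 20 members in the control (blue circles) and in the library labelled HIPK2 shRNA (red diamonds) beside the lengths of their annotated transcripts (vertical ticks, grey where the annotation marks the transcript as incomplete), in bases on a log axis. For ZNHIT6 the control value of 6084 bases sits on the longer of 2 transcripts and the other value of 2874 bases beside the shorter one, while for CD47 both values fall between transcripts.

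The simplest cases were ZNHIT6 and FBXL4, each with 2 annotated transcripts that differ mostly in the 3′ UTR. ZNHIT6, an assembly factor of small nucleolar ribonucleoproteins, had counts of 305 and 220, TPM of 2.55 and 4.23, and implied lengths of 6084 and 2874 bases. These lie beside ZNHIT6-202 with 6080 bases, 4638 of them 3′ UTR, and ZNHIT6-201 with 2797 bases, 1253 of them 3′ UTR. In the arithmetic of a mixture of these 2 lengths, ZNHIT6-202 would make up 100.1% of molecules in the control and 2.34% in the library labelled HIPK2 shRNA. FBXL4, a mitochondrial F-box protein, moved the other way. Its counts were 98 and 73, its TPM 1.34 and 0.499, and its implied lengths 3725 and 8098 bases. With FBXL4-201 at 2810 bases and FBXL4-202 at 8035, the same arithmetic gives FBXL4-202 as 17.5% and 101.2% of molecules. Shares just over 100% arise where the implied length exceeds that of the longer transcript, and all assume that reads were assigned to these 2 transcripts alone. The ends of both pairs are shown because these genes have no other annotated transcript.
ZNHIT6-201, chr1:85652808-85652837, minus strand: tgtaagagagtaaaaagattgttacatcta
ZNHIT6-202, chr1:85649423-85649452, minus strand: ttttcttgccaAATAAAgtaccaaagctca
FBXL4-201, chr6:98873725-98873754, minus strand: ttctagccaggtgtggtggcacacacttgt
FBXL4-202, chr6:98868538-98868567, minus strand: tagagtAATAAAataagtttgagtatctca
In both genes the longer transcript has AATAAA in its last 30 bases and the shorter has neither hexamer there.

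RNA processing and translation held 10 members, 5 longer and 5 shorter. PCF11, a subunit of the cleavage and polyadenylation machinery that also releases RNA polymerase II, had the lowest ratio of all. Its counts were 191 and 245, its TPM 1.27 and 9.48, and its implied lengths 7628 and 1430 bases, a ratio of 0.187. PCF11-201, the full-length coding transcript with 7677 bases, is near the control length. PCF11 is known to limit its own level through polyadenylation within its first intron. No annotated transcript lies within 15% of 1430 bases. On either side of that length lie PCF11-202 with 1041 bases, a retained intron, and PCF11-207 with 1720 bases, an unclassified transcript, neither of which codes for protein. PCF11-207 is a single exon at chr11:83157160-83158879, close to the gene start at 83156988. Whether it stands for a transcript ended in the first intron was not tested. Its CPM ratio was 1.30 (95% exact interval 1.07 to 1.58), so a TPM ratio of 7.44 stands on a small difference in reads. PCF11 was the only member among the 23 cleavage and polyadenylation factors that met the count minimum, and 0 of 54 splicing regulators were members. Over all tested genes the share of members was 0.812%, so lists of these sizes would hold few or none. The lowest ratio among those regulators was that of MBNL1, at 0.586.

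GSPT1, the translation termination factor eRF3a, had counts of 5196 and 4174, TPM of 135 and 40.2, and implied lengths of 1957 and 5744 bases, a ratio of 2.93. The control length is near GSPT1-206 with 1962 bases, 438 of them 3′ UTR. The other length lies below GSPT1-202 with 7105 bases, 4994 of them 3′ UTR, and no transcript is within 15% of it. The counts thus differ by less than the TPM do, as the CPM was 1.23-fold lower and the TPM 3.36-fold lower. GRSF1, a protein of mitochondrial RNA granules, had counts of 895 and 588, TPM of 15.2 and 4.90, and implied lengths of 2999 and 6631 bases. Its nearest transcripts are GRSF1-208 with 2682 bases and GRSF1-201 with 6666, and 94.2% of the difference between them is 3′ UTR. Their ends are shown as an example in which both carry AATAAA.
GRSF1-208, chr4:70819533-70819562, minus strand: agtcAATAAAtgaagacttgtttcaggctg
GRSF1-201, chr4:70815782-70815811, minus strand: atgAATAAAgttggtatgaacatgtacaac
NCBP3, a cap-binding protein, had counts of 483 and 541 and implied lengths of 4238 and 8871 bases. METTL8, a methyltransferase of mitochondrial transfer RNA, had counts of 70 and 126 and implied lengths of 1701 and 3443 bases. Both were higher by count and lower by TPM.

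RPL28, a protein of the large ribosomal subunit, had by far the most reads of any member, with 30342 and 38479 counts. Its TPM was 712 and 2021 and its implied lengths 2169 and 1053 bases, a ratio of 0.486. RPL28-210 with 1204 bases is near the second length, and no transcript is near the first, which lies between RPL28-211 with 1692 bases, a retained intron, and RPL28-201 with 4796 bases, 3756 of them 3′ UTR. The CPM ratio was 1.29 (95% exact interval 1.27 to 1.31) and the TPM ratio 2.84. Ribosomal protein genes have many processed copies in the genome, and no source used here says how reads with several matches were counted, so this value is uncertain. Of 78 ribosomal protein genes that met the count minimum, RPL28 was the only member, where 0.812% of all tested genes were members.

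MATR3, an RNA-binding protein of the nuclear matrix, is listed under 2 gene identifiers whose exons overlap on the same strand, and both were members. ENSG00000015479 had counts of 121 and 1087, TPM of 1.27 and 26.3, and implied lengths of 4839 and 2287 bases. ENSG00000280987 had counts of 466 and 91, TPM of 8.19 and 4.43, and implied lengths of 2897 and 1136 bases. The identifiers moved in opposite ways by count, with CPM ratios of 9.11 and 0.198. Summed over both, the counts were 587 and 1178, which is a CPM ratio of 2.03 and a TPM ratio of 3.25. Reads from shared exons can be given to either identifier, so the separate values are uncertain. ANKHD1-EIF4EBP3, a readthrough gene that joins 2 neighbours and shares their exons, carries the same uncertainty. Its counts were 269 and 719 and its implied lengths 2243 and 5064 bases.

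Transcription and chromatin held 17 members, 8 longer and 9 shorter. CREBBP, the histone acetyltransferase CBP, had counts of 1406 and 1400, TPM of 31.0 and 11.3, and implied lengths of 2311 and 6833 bases, a ratio of 2.96. Its CPM ratio was 1.01 (95% exact interval 0.937 to 1.09), while its TPM was 2.73-fold lower. The second length is near CREBBP-202 with 7598 bases, which codes for nearly the whole protein, and the first is near no transcript. HDAC2, a histone deacetylase, had counts of 626 and 649, TPM of 4.18 and 11.9, and implied lengths of 7627 and 3015 bases. Both its lengths fall between HDAC2-201 with 2084 bases and HDAC2-205 with 9874, which differ by 8033 against 343 bases of 3′ UTR. SMAD2, which carries TGF-beta and activin signals to the nucleus, had counts of 320 and 302, TPM of 2.51 and 9.25, and implied lengths of 6495 and 1806 bases. The second length is near SMAD2-212 with 1714 bases and SMAD2-205 with 1971, and the first lies well below the long forms, of which SMAD2-202 has 10445 bases. In these 3 genes the CPM ratios ran from 0.957 to 1.05 and the intervals included 1, so TPM differences of over 2-fold stood beside counts that did not differ beyond counting error.

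Other DNA-binding members had fewer reads. BBX, an HMG-box protein, had counts of 237 and 101 and implied lengths of 8715 and 2536 bases, with BBX-206 of 8930 bases and BBX-207 of 2178 as the nearest transcripts. GRHL1, a grainyhead factor of surface epithelium, had counts of 74 and 63 and implied lengths of 3549 and 1718 bases, near GRHL1-201 with 3563 bases and GRHL1-202 with 1881. ZNF558 had counts of 78 and 104 and implied lengths of 7051 and 3156 bases, near ZNF558-207 with 7032 bases and ZNF558-201 with 3014, and these code for proteins of the same length of 1206 coding bases. In that pair 88.0% of the length difference is 3′ UTR. TEAD1, the partner of YAP in Hippo signalling, had counts of 109 and 252 and implied lengths of 2035 and 4873 bases, with no transcript near either. ARNTL2, a circadian bHLH-PAS factor, had counts of 160 and 423 and implied lengths of 2174 and 5319 bases. NUPR1, a stress-induced chromatin protein, had counts of 90 and 64 and implied lengths of 1673 and 5583 bases. ZKSCAN1, ZBTB25 and FOXN3 were longer as well, at ratios of 2.03, 2.39 and 2.11. ZNF704, ZNF548, TRIM33 and ZFX were shorter, at ratios of 0.379, 0.462, 0.485 and 0.488.

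Cell surface and adhesion held 5 longer and 5 shorter members. CD47, the receptor that signals to phagocytes not to engulf a cell, had counts of 3301 and 1925, TPM of 101 and 25.2, and implied lengths of 1671 and 4220 bases, a ratio of 2.53. CD47 is known to be made with short and long 3′ UTRs that sort the protein differently. Its implied lengths lie between CD47-202 with 1285 bases, 210 of them 3′ UTR, and CD47-201 with 5225 bases, 4193 of them 3′ UTR, and neither is within 15% of one. Its CPM was 1.69-fold lower and its TPM 3.98-fold lower, so the unit changes the size of the difference and not its direction. The ends of both are shown because they bracket the 2 lengths. That of CD47-201 lies outside the deposited gene position, chr3:108043299-108091025.
CD47-202, chr3:108047081-108047110, minus strand: tgtaatttagttAATAAAataattatgatc
CD47-201, chr3:108043094-108043123, minus strand: agagttttaATTAAAagttttaaatcagtc
CD47 was the only member among 75 tested genes from a list of genes known for alternative isoforms. Of all tested genes 0.812% were members. Of the others on that list, NF2 at 1.74, ENAH at 0.626, FAS at 0.568, BRCA1 at 0.517 and CASP8 at 0.666 were past 1.5-fold.

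FAT1, a giant atypical cadherin, had counts of 1200 and 1182, TPM of 4.23 and 11.1, and implied lengths of 14443 and 5906 bases. FAT1-212 with 14758 bases, nearly all of it coding, is near the control length, and no transcript is near the other. Its CPM ratio was 0.999 (95% exact interval 0.921 to 1.08) beside a TPM ratio of 2.62. MUC16, the membrane mucin that carries the CA125 antigen, had counts of 321 and 529 and implied lengths of 14249 and 6526 bases, both far below MUC16-201 with 43816 bases and above its other transcripts, which have up to 4079. OCLN, the tight junction protein occludin, had counts of 73 and 64 and implied lengths of 4606 and 2187 bases, with no transcript near either. LMO7 and TENM3 were shorter too, at ratios of 0.420 and 0.430.

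Dystrophin, DMD, is known for internal promoters that give much shorter products than the muscle form. It had counts of 102 and 91, TPM of 1.72 and 0.497, and implied lengths of 3016 and 10132 bases. DMD-209 with 2617 bases is near the control length. The second length falls between DMD-211 with 7410 bases and DMD-229 with 13734, of which the latter has 11040 coding bases. PTPRB, a receptor tyrosine phosphatase, had counts of 92 and 66 and implied lengths of 3249 and 12308 bases, and PTPRB-202 with 12316 bases is near the second. HAS3, a hyaluronan synthase, had counts of 60 and 328, TPM of 3.02 and 6.01, and implied lengths of 1011 and 3017 bases. Its CPM ratio of 5.54 (95% exact interval 4.20 to 7.43) was larger than its TPM ratio of 1.99. FZD3, a Wnt receptor, had counts of 140 and 134 and implied lengths of 5066 and 13795 bases.

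Secretion and membrane traffic held 3 longer and 6 shorter members. SPCS1, a subunit of the signal peptidase complex, had counts of 1913 and 2238, TPM of 26.8 and 149, and implied lengths of 3636 and 830 bases, a ratio of 0.228. Near the second length lie SPCS1-205 with 832 bases and 2 others. The first lies below SPCS1-206 with 4254 bases, which has the same 507 coding bases as SPCS1-201 and 3337 bases of 3′ UTR against 370. RAB11A, a small GTPase of recycling endosomes, had counts of 725 and 1047, TPM of 11.2 and 67.5, and implied lengths of 3284 and 858 bases. RAB11A-203 with 978 bases is near the second length, and the first lies below RAB11A-201 with 4930 bases, 4154 of them 3′ UTR. The CPM ratios of SPCS1 and RAB11A were 1.19 and 1.46, beside TPM ratios of 5.57 and 6.01.

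MIA3, or TANGO1, which exports collagen from the endoplasmic reticulum, had counts of 219 and 269 and implied lengths of 8147 and 3403 bases. MIA3-203 with 8142 bases and 5721 coding bases is near the first, and MIA3-204 with 3045 bases, marked as incomplete, is near the second. This was the only protein-coding pair in which coding sequence made up the larger part of the difference. NBAS, a tethering protein of Golgi-to-endoplasmic reticulum traffic, had counts of 263 and 279, TPM of 4.20 and 2.13, and implied lengths of 3189 and 7239 bases, with NBAS-201 of 7281 bases near the second. RABEP1, an effector of early endosomes, had counts of 534 and 474 and implied lengths of 1551 and 3156 bases. CNST, which sorts connexins, had counts of 125 and 102 and implied lengths of 2575 and 5150 bases, near CNST-202 with 2422 bases and CNST-203 with 5126. TOM1L1, an adaptor of endosomal sorting, had counts of 349 and 327 and implied lengths of 6129 and 1971 bases. Its longest annotated transcript has 2507 bases, so the control length has no counterpart in GENCODE 29. PIK3C3 and BLOC1S6 were shorter, at ratios of 0.368 and 0.492.

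Mitochondria and metabolism held 3 longer and 4 shorter members. NDUFS1, an iron-sulfur subunit of complex I, had counts of 1657 and 1062, TPM of 7.39 and 17.0, and implied lengths of 11412 and 3448 bases, a ratio of 0.302. By count it was 1.54-fold lower and by TPM 2.31 times the control. The nearest transcripts are NDUFS1-201 with 11819 bases, 9371 of them 3′ UTR, and NDUFS1-207 with 3361 bases, 1077 of them 3′ UTR, and 98.1% of the difference between them is 3′ UTR. Their ends are shown because the 2 units disagree in direction for this gene at over 1000 reads in each library.
NDUFS1-207, chr2:206123111-206123140, minus strand: aggaatcagaataaggatcactgagaattt
NDUFS1-201, chr2:206114817-206114846, minus strand: gcagatacAATAAAaacttaattgtgatta
PRPSAP1, a regulator of phosphoribosyl pyrophosphate synthesis, had counts of 1404 and 1160, TPM of 41.0 and 17.7, and implied lengths of 1743 and 3624 bases, near PRPSAP1-201 with 1678 bases and PRPSAP1-206 with 3660. In that pair the shorter transcript has AATAAA in its last 30 bases and the longer has neither hexamer there. PDK1, a kinase that restrains entry of pyruvate into the citric acid cycle, had counts of 222 and 370 and implied lengths of 1762 and 3698 bases. ME2, the mitochondrial malic enzyme, had counts of 329 and 256 and implied lengths of 4414 and 9422 bases, and ME2-201 with 9415 bases is near the second. FAM210A had counts of 393 and 235 and implied lengths of 3854 and 1872 bases. GSTO2 and SPTLC3 were shorter at lower counts, with ratios of 0.387 and 0.457.

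Protein turnover and the cytoskeleton held the remaining members with a clear role. PSMC2, an ATPase subunit of the proteasome cap, had counts of 2876 and 1815, TPM of 116 and 37.0, and implied lengths of 1257 and 2710 bases, a ratio of 2.16. PSMC2-206 with 1357 bases, 157 of them 3′ UTR, and PSMC2-201 with 2637 bases, 1338 of them 3′ UTR, are the nearest. Their ends are shown because PSMC2 is the pair with most reads.
PSMC2-206, chr7:103368179-103368208, plus strand: gtaatatAATAAAaggtgatttctaatgtt
PSMC2-201, chr7:103369360-103369389, plus strand: tgttttgATTAAATAAAtgtacacatttag
In PSMC2-201 the capitals cover ATTAAA and AATAAA, which overlap. PHACTR2, a phosphatase and actin regulator, had counts of 65 and 161 and implied lengths of 4364 and 9578 bases, near PHACTR2-202 with 4367 bases and PHACTR2-207 with 9531. FARP1, a guanine nucleotide exchange factor, had counts of 91 and 875, TPM of 1.64 and 5.14, and implied lengths of 2817 and 9409 bases. Its CPM ratio of 9.75 (95% exact interval 7.85 to 12.2) and TPM ratio of 3.13 point the same way. PLEKHG2, another exchange factor, had counts of 111 and 397 and implied lengths of 1980 and 5734 bases. ARHGAP5 and DNAL1 were longer, at ratios of 2.13 and 2.20, and CEP170 and CEP63, of the centrosome, were shorter, at 0.424 and 0.468. KLHL23 was longer at 3.09, and FBXL20 and DPP8 were shorter at 0.457 and 0.460.

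The other 18 members had no common role. LYSMD4 stood apart from all members. It had counts of 202 and 197, TPM of 3.78 and 0.0521, and implied lengths of 2716 and 209040 bases. The longest LYSMD4 transcript in GENCODE 29 has 3001 bases, so the second value has no counterpart there. The deposited position of the gene, chr15:99715703-99717824, is that of LYSMD4-203 alone, with 2122 bases, while most of its transcripts start and end elsewhere, so what the second value means is uncertain. Its CPM ratio was 0.989 beside a TPM 72.6-fold lower. AHNAK2, a giant scaffold protein, had counts of 315 and 169, TPM of 0.877 and 2.27, and implied lengths of 18273 and 4109 bases. AHNAK2-201 with 18254 bases is near the first, and AHNAK2-204 with 3436 bases lies below the second. C6orf89 had counts of 566 and 906 and implied lengths of 2573 and 5378 bases. TMEM106B, a lysosomal membrane protein, had counts of 285 and 239 and implied lengths of 2586 and 5531 bases, with no transcript near either. FAM126A had counts of 210 and 224 and implied lengths of 2979 and 6404 bases, near FAM126A-202 with 3130 bases and FAM126A-205 with 6337, the latter marked as incomplete. PCNX4, with counts of 292 and 236, was shorter at 8828 and 3867 bases, and LRRC28, with counts of 348 and 300, at 3143 and 1468. NIPA1, a magnesium transporter, had counts of 281 and 58 and implied lengths of 2862 and 1229 bases. DNAJC18, UHRF1BP1L, PLEKHA1, TMEM260 and DGKH were longer at lower counts, with ratios from 2.07 to 3.12. LMLN, TMTC3, RASSF8, SAMD12 and WWC2 were shorter, with ratios from 0.357 to 0.492.

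The members differed more between the libraries by TPM than by count. At 2-fold or more on the scale of log2(CPM + 1), 9 members were higher in the library labelled HIPK2 shRNA, 8 longer and 1 shorter, where 1.86% of the 10342 genes were higher. On that scale 4 members, all shorter, were lower, where 2.33% of genes were. On the scale of log2(TPM + 1), 18 members were higher, 17 shorter and 1 longer, against 2.07% of genes, and 9 members, all longer, were lower, against 1.72%. With a pseudocount of 5 in place of 1 the TPM counts were 5 higher and 6 lower. These counts follow in part from the rule, which used count and FPKM, and are given as a description. The median log2 CPM ratio was 0.054 in the longer and -0.085 in the shorter members, against -0.015 over all tested genes. The median log2 TPM ratio was -0.64 and 0.80, against 0.069. The CPM ratio and the TPM ratio lay on opposite sides of 1 for 34 members, 13 longer and 21 shorter, where 13.0% of genes did so. The rule sets these ratios about 2-fold or more apart in every member, so this too follows in part from it. No member was past 2-fold in opposite ways.

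**Figure D3:**
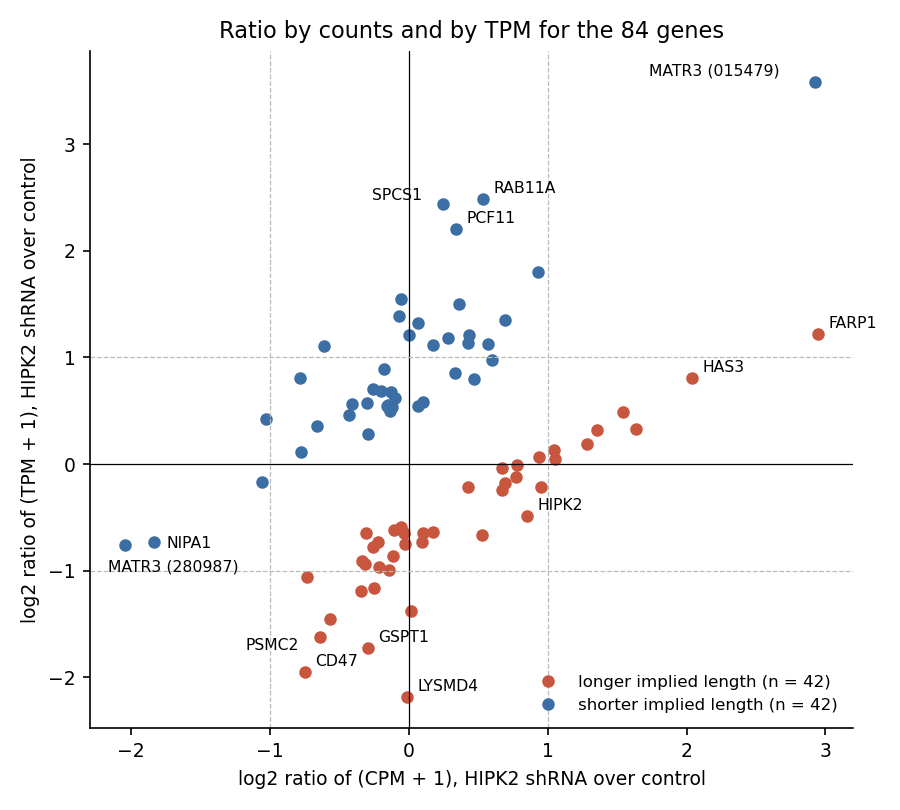
For each of the 84 members, the log2 ratio of (CPM + 1) (horizontal) and of (TPM + 1) (vertical), library labelled HIPK2 shRNA over control, with longer members in red and shorter members in blue. Dashed lines mark 2-fold, the longer members lie below the shorter ones at like CPM ratios, and HIPK2 is among the points with a positive CPM and a negative TPM ratio.

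The annotation of the members, which the rule did not use, differed from that of the tested genes mainly in length. A 2-fold shift in implied length needs transcripts of unequal length, so part of this follows from the rule. Their median longest annotated transcript had 7754.5 bases, against 3629.5 over all tested genes, and their median longest 3′ UTR 4699 bases, against 1605. The ratio of the longest to the shortest transcript had a median of 16.5, against 7.32. The number of transcripts was less different, with a median of 9.5 against 8. Exon sharing was near the background. Exons were shared with another gene on the same strand in 16 of the 84 members and in 17.5% of tested genes, and on the opposite strand in 38 of the 84 and 41.6%. The same-strand group included PCF11, NDUFS1, RPL28, both MATR3 identifiers, ANKHD1-EIF4EBP3, LMO7, NIPA1, ZNF548, BLOC1S6, DNAJC18, FOXN3, PHACTR2, KLHL23 and DGKH. Where exons overlap, a read may have been credited to the neighbour, and without a stated strand setting this holds for both groups, so their values are uncertain. The share of genes that were members grew from 0.542% at 2 to 4 transcripts to 1.17% at 20 or more.

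Depth moved with membership. The median summed count was 338.5 in the members and 1220 in all tested genes. Of the genes with a mean count from 50 to 100, 25 of 827 were members (3.02%), and of those at 2000 or more, 5 of 2458 (0.203%). In 55 members the count was under 200 in at least 1 library, and the other 29 comprised 15 longer and 14 shorter genes. Of the 10342 tested genes, 7581 had 200 counts or more in both libraries. How much of the low-count membership comes from sampling of reads was not tested.

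**Figure D4:**
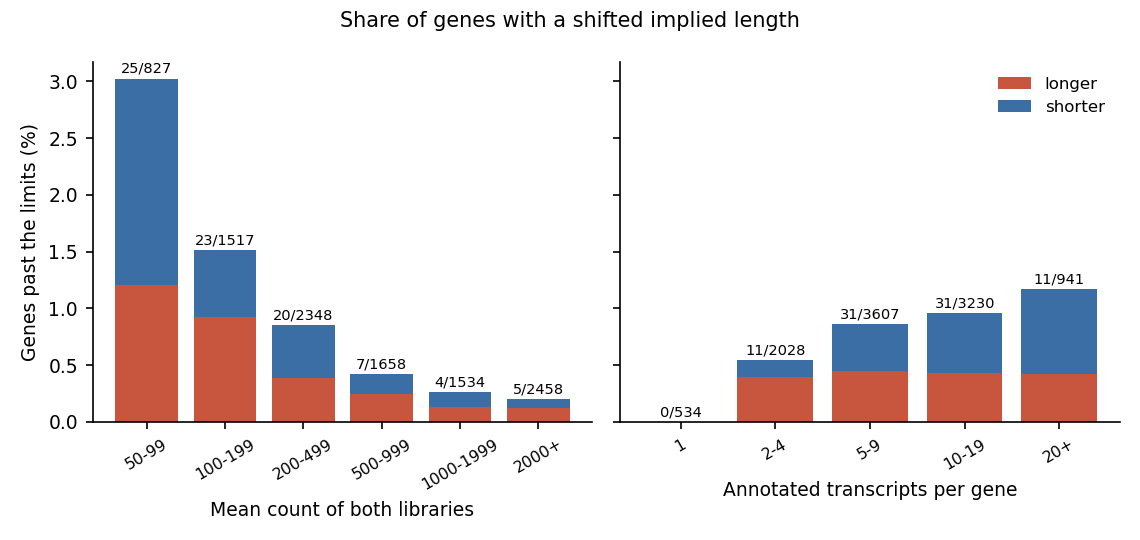
Share of tested genes that were members, in percent, by mean count of both libraries (left) and by the number of annotated transcripts (right), stacked as longer (red) and shorter (blue), with members over tested genes above each bar. The share is 3.02% in the lowest and 0.203% in the highest count class, and 0 of 534 genes with 1 transcript were members.

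Genes at the limits show how the threshold divides a continuous scale. The longer members nearest the limit of 2 were CNST at the limit itself, METTL8 at 2.03 and ZKSCAN1 at 2.03, and just outside lay UBXN2B at 1.998, ACADSB at 1.997 and ANK3 at 1.98. The shorter members nearest the limit of 0.5 were BLOC1S6 and WWC2, both at 0.492, and ZFX at 0.488, and just outside lay SUPT3H at 0.503, GNAI1 at 0.504 and KIAA0930 at 0.505. KIAA0930 had 6494 and 5172 counts, more than all but 1 of the shorter members.

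The libraries had total counts of 28064923 and 26450251. Of 9 squamous epithelial markers 8 met the count minimum. Summed over all 9, the CPM was 4690 in the control and 4053 in the library labelled HIPK2 shRNA. KRT5 made up most of that sum, at 2766 and 2554 CPM. KRT14 was at 11.6 and 1.63 CPM and CDH1 at 184 and 87.3, both lower, while DSP was higher at 54.4 and 75.6. Some markers of other cells were detected. Of the fibroblast markers COL1A1 was at 9.59 and 12.7 CPM, COL1A2 at 6.82 and 6.06 and PDGFRB at 1.60 and 2.70, while DCN was at 0 in both libraries. Of the leukocyte markers CD14 was at 4.96 and 3.25 CPM, and PTPRC and CD3E were at 0. Of the endothelial markers CDH5 was at 55.2 and 27.3 CPM and VWF at 0.911 and 1.15, and PECAM1 was at 0. None of these markers was a member, and their part in the members' values was not tested.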

How the data were processed

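RNA of 2 Cal-27 cultures, 1 library per group, was measured by RNA-seq. The submitters' processing notes name FastQC, TopHat2 2.1.1 and the build GRCh38 (hg38), with no further detail. The counting tool, its annotation, its strand setting and whether count and FPKM share a tool were not given in the sources used here. Per the file headers, each deposited table gives a whole-number count, a TPM and an FPKM per gene. The deposited counts were not normalized by the authors, and the deposited TPM is a constant multiple of the deposited FPKM within a library.

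Implied length was count divided by FPKM, scaled to bases with the genes that have 1 transcript in GENCODE 29. Transcript lengths, 3′ UTRs, exon sharing and sequences came from GENCODE 29 on GRCh38, which held 20224 of the 20263 identifiers. CPM was scaled by TMM in edgeR 4.0.16 (R 4.3.3), and nothing was fitted or tested, since a single library stood for each group. Log2 ratios used a pseudocount of 1, and a difference past 2-fold is a rule of size. Intervals are 95% exact (Clopper-Pearson), conditional on the summed count, from scipy 1.17.1. The rule for the ratio was run on simulated counts, with complete switches between the longest and shortest transcript of a gene. Switched genes were drawn only where these lengths differ by well over 2-fold. That such switches pass the limit was thus fixed in advance, and partial switches were not simulated. Scaling to bases, matching to transcripts and read assignment were not simulated.

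The members, the gene lists and the roles were chosen with earlier results of these data known. The genes named by rule are the HIPK family, up to 15 members in each direction with the largest shift at 200 counts or more in both libraries, the 10 with most counts, members of the splicing, polyadenylation and isoform lists, and the 5 genes on either side of each limit. Members outside the rule were named after their values were seen. Alternatives were other limits, count minimums, centrings, scalings (total count, DESeq2 1.42.0 size factors), pseudocounts, tolerances and gene sets. Some genes are not reported here by name.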

Additional observations from a re-analysis of the deposited data

How the results depend on the processing

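The numbers of longer and shorter members followed the thresholds by construction. A limit of 1.5-fold gave 186 longer and 193 shorter genes, 3-fold gave 8 and 8, and 4-fold gave 2 and 3. A count minimum of 20 gave 74 and 64, 100 gave 25 and 22, 200 gave 15 and 14, 500 gave 7 and 6, and no minimum gave 144 and 147. Without genes that share exons on either strand there were 20 and 18. Without centring the split was 31 longer and 56 shorter, and with centring on totals 38 and 48. The HIPK2 length ratio was 3.77 and 3.92 under these 2 centrings, against 4.01.

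With a pseudocount of 0.1, 25 members were higher and 21 lower in TPM, and with a pseudocount of 5, 5 were higher and 6 lower, so the balance of 18 higher to 9 lower depends on the pseudocount. With a pseudocount of 5, 5 were higher and 2 lower in CPM. At 1.5-fold 20 were higher and 11 lower in CPM, and 28 and 27 in TPM, while at 4-fold these were 3, 1, 4 and 1. A tolerance of 25% gave 42 members with transcripts near both lengths. Exons shared on either strand, a choice made after seeing the data, gave 46 members. Of the 10342 tested genes, 5073 shared no exons on either strand. Leaving out the 2 genes whose implied length exceeds every annotated transcript (41 and 41 remain) and using complete transcripts only (24 with transcripts near both lengths) were also chosen after seeing the data.

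No paired analysis was possible because there was 1 library on either side, and for that reason no replicate was left out. Depth limits genes near the minimum of 50 counts most. An implied length is 1 value per gene and library, and a mixture of transcripts, a transcript of intermediate length and the assignment of reads to transcripts cannot be told apart in it.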
